A study of Homo sapiens with 3 samples.

Results

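Notch is a short-range signalling pathway in which a receptor on one cell meets a ligand on its neighbour. This account describes where ETS1 peaks lay at 10 genes of that pathway in SCC25 cells. They are the receptors NOTCH1, NOTCH2 and NOTCH3, the ligands JAG1, JAG2 and DLL1, the nuclear partners RBPJ and MAML1 and the target genes HES1 and HEY1. The 10 genes are named members among 20162 protein-coding genes of GENCODE release 44 on the hg19 build. For each gene, the peaks whose midpoint fell in the gene body or within 100 kb of it were taken, which gave 83 of the 26961 nuclear peaks. SCC25 is an established human tongue carcinoma line of squamous type, described in the labels as mesenchymal, and its cells were untreated in all samples. ETS1 was immunoprecipitated in 3 samples, of which 2 used the polyclonal antibody C20 and 1 used the polyclonal antibody 501A. The deposited result is 1 list of intervals pooled over the 3 samples, with no signal, summit or value per sample. There is therefore no spread between samples and no test between groups, the antibodies cannot be compared, and the list carries no read depth per sample. TSS stands for transcription start site, and the canonical TSS is that of the transcript the annotation marks as canonical. Shares are given with 95% Wilson intervals, which cover counting error only, and a peak marks a place on the list and not its strength.

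On ligand binding the receptor is cut by ADAM proteases and then by gamma-secretase, and its intracellular part moves to the nucleus. There it joins the DNA-binding protein RBPJ and a Mastermind protein such as MAML1 and switches on genes that include HES1 and HEY1, which encode repressors of the basic helix-loop-helix family. In stratified epithelia the pathway is known for promoting differentiation, and in squamous carcinomas its genes are recurrently altered. ETS1 belongs to a family of transcription factors that recognise DNA with the core GGAA. The list holds no RNA measurement, so whether these genes were expressed or responded to ETS1 was not analysed here.

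At least 1 ETS1 peak fell in the window of 9 of the 10 genes, and NOTCH2 was the gene without any. A window peak was common in the genome, with 87.5% of protein-coding genes having one, so this count says little about the Notch genes. JAG2 had 16 peaks, NOTCH1 had 15, JAG1 and HES1 had 12 each and DLL1 had 10. MAML1 had 8, HEY1 had 5, NOTCH3 had 3 and RBPJ had 2. The median was 9 peaks, against 4 over all protein-coding genes (quartiles 2 and 8). A count of 10 or more was reached by 5 of the 10 genes and by 18.4% of all genes. NOTCH1 exceeded 94.5% of protein-coding genes and JAG2 exceeded 95.8%, whereas NOTCH3 exceeded 34.0% and RBPJ 23.2%. Windows differ in length, and per 100 kb of window the Notch genes had a median of 3.86 peaks against 1.60 over all genes. RBPJ, the longest of the 10 at 272 kb, had 0.424 peaks per 100 kb, and JAG2 had 7.02. The order of the counts is a description of 1 list, and neighbours in it such as JAG2 and NOTCH1 cannot be separated without replicates.

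**Figure D1:**
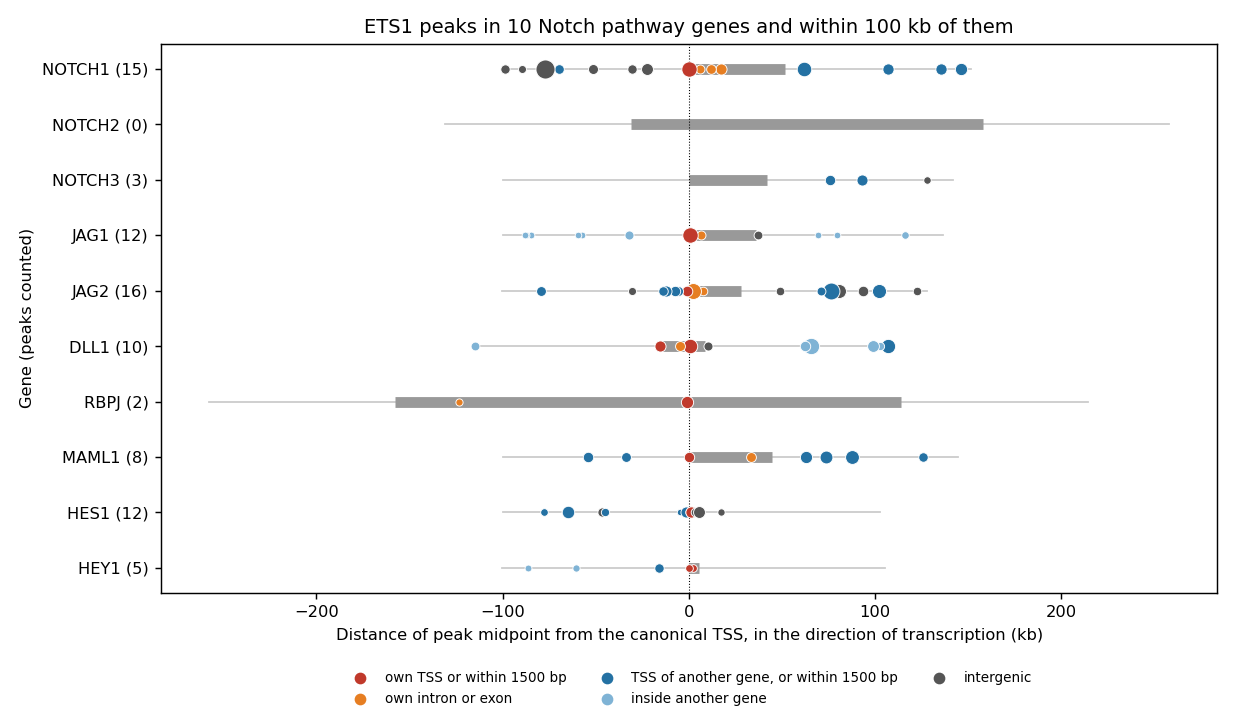
Each dot is 1 ETS1 peak, placed by the distance of its midpoint from the canonical TSS in kb along the direction of transcription, with dot area growing with peak width and colour giving its position. Grey bars are gene bodies and thin lines the 100 kb windows. The 16 peaks of JAG2 and 15 of NOTCH1 spread over both flanks, the 12 peaks of HES1 lie mostly upstream or close to its start, and NOTCH2 has none.

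Inside the gene body, 8 of the 10 genes had a peak, where the share of all protein-coding genes was 53.5%. NOTCH1 had 4 such peaks, HES1 had 1, the other genes with any had 2 each, and NOTCH2 and NOTCH3 had none. The midpoint of a peak lay within 500 bp of an annotated TSS at NOTCH1, DLL1, RBPJ, MAML1, HES1 and HEY1, which is 6 of 10 against 53.1% of all genes. A peak covered an annotated TSS at 8 of 10, JAG1 and JAG2 included, against 56% of all genes. The first of these counts stands close to the background and the second above it, and 10 genes are too few to place either precisely. Introns of the gene itself held peaks at NOTCH1, JAG1, JAG2 and RBPJ in classes that put a TSS first, 4 genes of 10 where 14.3% of all genes had one. Intergenic peaks lay in the windows of 6 genes, against 34.9% of all genes.

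A window of 100 kb also takes in peaks that stand at other genes. Of the 83 peaks, 42 had one of the Notch genes as their nearest protein-coding TSS. All 12 peaks of HES1, all 5 of HEY1 and both of RBPJ did, as did 9 of the 12 at JAG1. Only 7 of the 15 at NOTCH1, 4 of the 16 at JAG2, 2 of the 8 at MAML1 and 1 of the 10 at DLL1 did, and none of the 3 at NOTCH3. Other protein-coding genes with a TSS in the window numbered 0 at HES1 and HEY1 and 1 at RBPJ, JAG1 and DLL1. There were 4 at JAG2, 5 at NOTCH1 and NOTCH3 and 8 at MAML1. At HES1 and HEY1 the nearest coding gene was thus largely fixed by the annotation. Without the limit of 100 kb, JAG1 was the nearest coding gene of 18 peaks and HES1 of 16. Each of these counts exceeded those of 99.8% of protein-coding genes. A gene with few coding neighbours gathers more peaks by this rule, and the counts were not adjusted for it. NOTCH1 was the nearest of 7 peaks and HEY1 of 5. At least 5 peaks had the same nearest gene for 4 of the 10 Notch genes and for 6.22% of all genes, and at least 1 did for 8 of 10 against 61% of all genes. With all annotated genes in place of the protein-coding ones, the number of peaks nearest to a Notch gene was 17 in place of 42. For the peaks that changed, a non-coding gene such as LINC02028, LINC01752 or U3 started nearer to the midpoint, whether close by or many kb away.

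**Figure D2:**
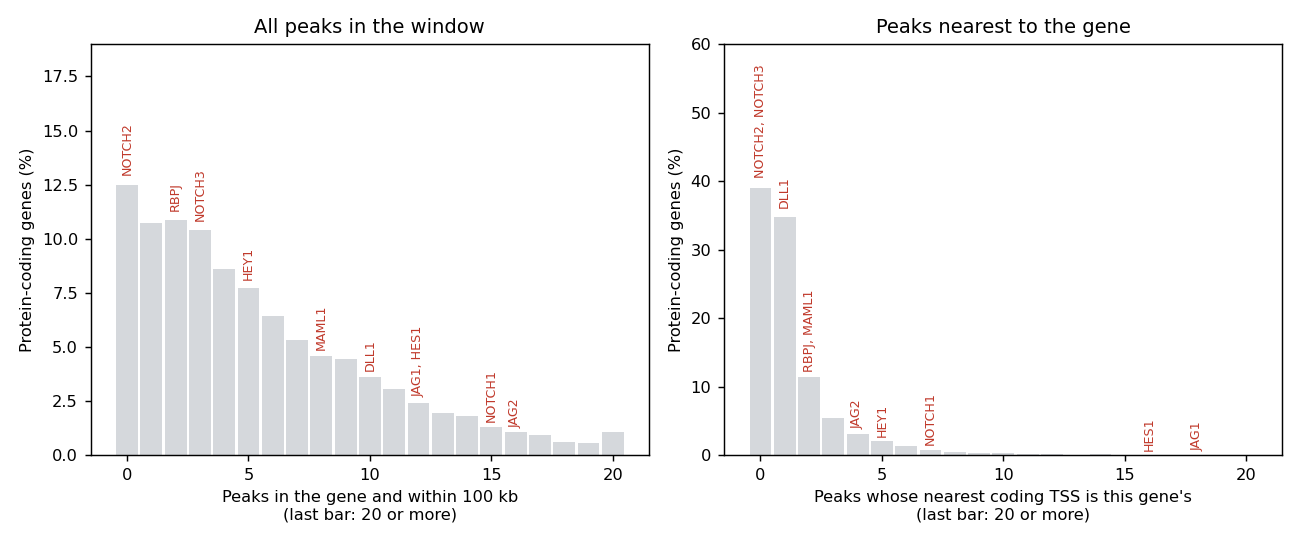
The left panel plots the share of protein-coding genes (%) against the number of ETS1 peaks in the gene and within 100 kb, and the right panel against the number of peaks whose nearest coding TSS is that gene's. Red names place the 10 Notch genes, and the last bar of each panel gathers 20 or more. JAG2 with 16 and NOTCH1 with 15 stand on the right flank of the first panel, and HES1 with 16 and JAG1 with 18 lie far out in the second.

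Among the receptors, NOTCH1 carried peaks along its 5′ part. NOTCH1 (ENSG00000148400, chromosome 9, 139388885 to 139440500, minus strand) has 34 exons. A peak of 3858 bp at chr9:139438218-139442075 covered its canonical TSS, with the midpoint 302 bp away from the closest annotated one. It was wider than 99.1% of all peaks. The other 3 peaks of the gene body lay in introns, 6.01, 11.9 and 17.2 kb from the canonical TSS. The 100 bases before the TSS lay wholly under the first of these peaks and held no GGAA on either strand. Those letters were found in the same 100 bases of 64.6% of 19881 protein-coding genes with a canonical transcript. Of the intron peaks, those at 6.01 and 11.9 kb each held 1 AP-1 site (TGACTCA on either strand), the sequence recognised by FOS and JUN dimers. The absence of GGAA concerns these 100 bases only, since the 600 bp around the midpoint of the start peak held 6 GGAA cores and those of the intron peaks held 5 to 8. The stretches are shown for the start site and for the intron AP-1 sites with their nearest ETS cores. In all sequences below, letters run 5′ to 3′ on the strand of the named gene in GRCh37, which has the nuclear sequence of hg19. Capitals mark an ETS core (GGAA), an RBPJ core (GTGGGAA) or an AP-1 site (TGACTCA), read on either strand.

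NOTCH1, 100 bases before the canonical TSS, chr9:139440501-139440600: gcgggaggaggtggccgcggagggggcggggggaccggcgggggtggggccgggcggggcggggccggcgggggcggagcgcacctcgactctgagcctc
NOTCH1, intron peak 6.01 kb inside, chr9:139434207-139434306: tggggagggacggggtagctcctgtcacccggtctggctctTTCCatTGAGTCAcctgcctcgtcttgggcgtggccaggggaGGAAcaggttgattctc
NOTCH1, intron peak 11.9 kb inside, chr9:139428377-139428476: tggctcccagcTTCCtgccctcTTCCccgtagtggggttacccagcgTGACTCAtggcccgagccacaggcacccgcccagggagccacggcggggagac

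Upstream of NOTCH1, 7 peaks lay between 22.5 and 98.6 kb from the TSS, 6 of them intergenic. The widest peak of any Notch window was among these. It measured 6203 bp at chr9:139514557-139520759, 77.2 kb upstream, and was the widest of all 5145 intergenic peaks of the list. Its nearest protein-coding gene was EGFL7, whose product is a secreted protein of blood vessels, and the assignment to NOTCH1 is by distance alone. The sequence GTGGGAA, a core bound by RBPJ, occurred 3 times in this peak, once within 24 bp of its midpoint. That site is shown because it lay nearly at the centre of the widest peak.

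NOTCH1, intergenic peak 77.2 kb upstream, chr9:139517585-139517684: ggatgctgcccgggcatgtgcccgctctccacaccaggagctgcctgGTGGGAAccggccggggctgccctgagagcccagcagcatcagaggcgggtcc

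Downstream of NOTCH1 the 4 peaks stood at other genes, namely SNAPC4, the ENTR1 and PMPCA promoters, INPP5E and, 519 bp from its TSS, SEC16A. NOTCH3 (ENSG00000074181, chromosome 19, 15269849 to 15311806, minus strand) had no peak in its body and none upstream. Its 3 window peaks were all downstream. One covered the promoter of ILVBL at 40.6 kb from the nearest NOTCH3 TSS, one lay 449 bp from a TSS of SYDE1, and one of 558 bp was intergenic. None of these had NOTCH3 as its nearest coding gene. No peak fell within 50 kb of the canonical TSS of NOTCH3.

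NOTCH2 (ENSG00000134250, chromosome 1, 120454176 to 120643366, minus strand) had no peak in a window of 389 kb. The nearest peak was 422 kb from its canonical TSS, and 250 kb around the gene held 0 peaks. How much of the sequence beyond the 100 kb window could hold a peak was not measured. No peak in the window was found at 12.5% of protein-coding genes. The authors kept reads that mapped to a single place, and reads were 50 bases long, so the share of 50-base sequences that occur once in the genome was computed for each window. In the NOTCH2 window 65.1% of them did, and 11.9% of the window was sequence gap. In the other 9 windows the share was between 87.0 and 98.4%, with no gap. Within 5 kb of the canonical TSS the share was 38.4% at NOTCH2 and between 93.1 and 100% at the other 9 genes, and within 500 bp it was 30.4% at NOTCH2. In bins of 10 kb, every bin of the NOTCH2 window centred 83.1 kb or more inside the TSS had at least 85.7% unique sequence. These bins held no peak, like the rest of the window, and they do not describe the sequence near the start. How far the low share near the start bears on the missing peaks was not tested.

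**Figure D3:**
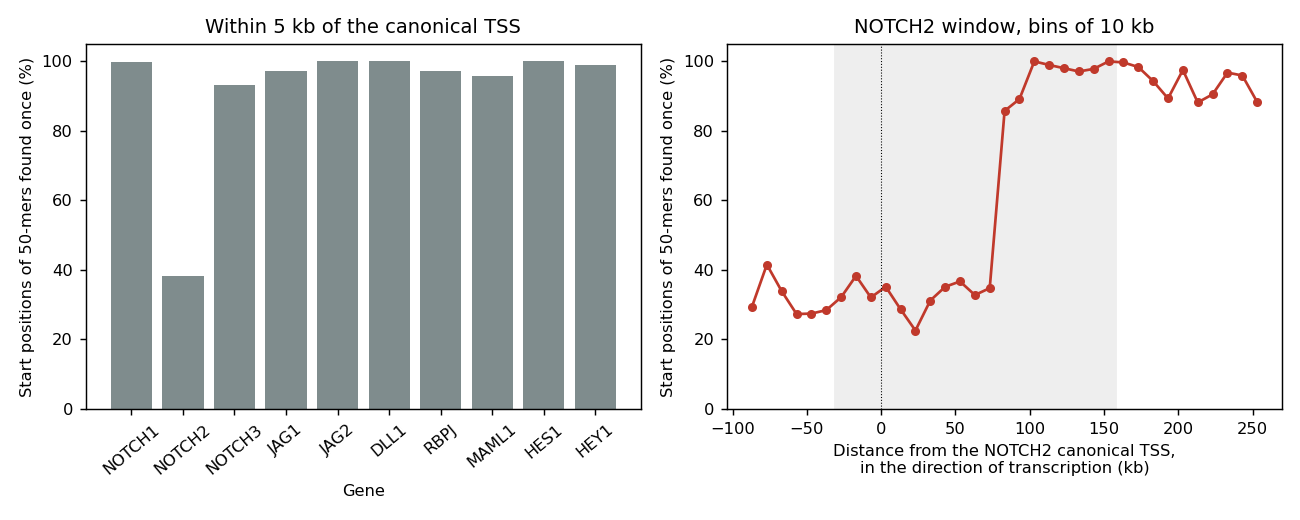
The left panel gives, for each gene, the share of start positions within 5 kb of the canonical TSS whose 50-base sequence occurs once in the genome (%). The right panel gives the same share in 10 kb bins along the NOTCH2 window against distance from its canonical TSS in kb, with the gene body shaded. NOTCH2 stands at 38.4% where the other genes lie at 93.1% or above, and its share rises beyond about 80 kb inside the gene.

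The ligands JAG1, JAG2 and DLL1 are membrane proteins presented to neighbouring cells, and the start of each lay at or under a wide peak. JAG1 (ENSG00000101384, chromosome 20, 10618332 to 10654647, minus strand) had a peak of 3912 bp at chr20:10652121-10656032, which covered the canonical TSS. Its midpoint lay 570 bp inside the gene, so it was counted as proximal and not as a TSS peak. A second peak lay in an intron 6.84 kb inside and held 2 AP-1 sites. The remaining 10 peaks stood outside the gene. All 3 of those furthest downstream lay in introns of SLX4IP, and those upstream lay in long non-coding RNA genes. Most were narrow, and 7 of the 12 JAG1 peaks were under 500 bp wide, compared with 12 of all 83 (14.5%) and 17% of all nuclear peaks. With peaks at least as wide as the median of the list, 969 bp, JAG1 kept 3 of its 12. The stretches below show the 100 bases before the JAG1 start and an AP-1 site of the intron peak. They also show an RBPJ core of a peak 32.3 kb upstream. This core lay 299 bp from the peak midpoint, not wholly inside the 600 bp searched. Like those of NOTCH1, the 100 bases before the JAG1 start lacked GGAA. So did those of JAG2, which lay under a peak, and of NOTCH3, which did not. Those of NOTCH2, without a peak, held 2 GGAA cores. In the 600 bp around the midpoint the JAG1 start peak held 6 GGAA cores and the JAG1 intron peak 5.

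JAG1, 100 bases before the canonical TSS, chr20:10654648-10654747: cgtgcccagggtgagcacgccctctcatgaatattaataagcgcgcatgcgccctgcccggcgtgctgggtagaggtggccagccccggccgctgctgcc
JAG1, intron peak 6.84 kb inside, chr20:10647933-10648032: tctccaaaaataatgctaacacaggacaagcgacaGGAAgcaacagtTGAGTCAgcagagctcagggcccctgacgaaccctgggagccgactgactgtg
JAG1, peak 32.3 kb upstream, chr20:10687161-10687260: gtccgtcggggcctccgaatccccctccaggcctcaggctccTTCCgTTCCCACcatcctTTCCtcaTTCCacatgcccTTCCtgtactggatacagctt

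JAG2 (ENSG00000184916, chromosome 14, 105607319 to 105635161, minus strand) had the most window peaks of the 10 genes when all peaks were counted singly. One of 4165 bp at chr14:105630624-105634788 ran through the 5′ part of the gene, and one of 1587 bp at chr14:105635033-105636619 covered the canonical TSS. Only 244 bp separated them. Within 10 kb of the canonical TSS there were 5 peaks, a number reached by 72 of 19881 genes. Of these, the outer pair upstream lay nearest to NUDT14, 12 of the 16 JAG2 peaks had another gene as their nearest coding gene, and another pair of wide peaks 76.4 and 80.8 kb downstream stood beside LINC02298. Joined across gaps under 1 kb, the 16 JAG2 peaks became 12 regions while NOTCH1 kept 15, and the widest JAG2 region was the 8335 bp beside LINC02298. NOTCH1 also led with peaks at least as wide as the median (14 against 12 at JAG2). In the first 13485 lines of the list NOTCH1 and HES1 had 9 peaks and JAG2 had 7, and what the line order means is not stated.

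DLL1 (ENSG00000198719, chromosome 6, 170591294 to 170615653, minus strand) shares its 5′ end with FAM120B, which is transcribed the other way. A peak of 3372 bp at chr6:170597856-170601227 covered the canonical DLL1 TSS with its midpoint 624 bp inside, and its nearest TSS of any gene was an alternative one of FAM120B at 249 bp. The peak that placed DLL1 among the genes with a TSS peak lay elsewhere. It measured 1787 bp, stood 15 bp from a second annotated DLL1 TSS and 178 bp from a FAM120B TSS, and was 15.5 kb from the canonical DLL1 start. With canonical transcripts alone DLL1 dropped out of that count, and so did RBPJ, which left 4 of 10 genes against 46.1% of all genes. The pooled intervals cannot divide these peaks between the genes. Further peaks lay between 62.2 and 107 kb downstream, inside or beside long non-coding RNA genes, and a peak of 766 bp among them held 3 RBPJ cores. One of these lay 1 bp from its midpoint, with 5 GGAA cores counted over 100 bases, and the window of 600 bp around it held the most GGAA cores of any of the 83 peaks, 25. It is shown with the DLL1 start, where 2 GGAA cores lay in the 100 bases before the TSS. The stretch from the downstream peak is in part a repeat, since a run of letters with GGAA cores recurs within it. Its cores are therefore partly copies of each other, and how much of the 600 bp is repeat was not examined.

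DLL1, 100 bases before the canonical TSS, chr6:170600167-170600266: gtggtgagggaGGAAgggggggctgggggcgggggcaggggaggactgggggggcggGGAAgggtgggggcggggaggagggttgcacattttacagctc
DLL1, peak 103 kb downstream, chr6:170497534-170497633: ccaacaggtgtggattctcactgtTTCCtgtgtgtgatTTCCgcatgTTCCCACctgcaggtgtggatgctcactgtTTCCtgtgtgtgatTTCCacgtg

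The nuclear partners RBPJ and MAML1 each had 2 peaks in the gene body, as many as JAG1, JAG2, DLL1 and HEY1. RBPJ (ENSG00000168214, chromosome 4, 26165077 to 26436753, plus strand), the DNA-binding subunit, has 43 annotated TSSs. Both of its peaks were inside the gene. One of 2292 bp at chr4:26320592-26322883 covered the canonical TSS and lay 406 bp from another RBPJ TSS, and it held 3 RBPJ cores. The other measured 479 bp and stood in an intron 34.0 kb from the nearest RBPJ TSS. Its AP-1 site lay 88 bp from the midpoint, and the 100 bases around it, which are printed here, held no GGAA, although the 600 bp around the midpoint held 11. The 100 bases before the canonical RBPJ TSS held 5 GGAA cores and are not printed, since they are exonic. MAML1 (ENSG00000161021, chromosome 5, 179159823 to 179204284, plus strand), which encodes a coactivator, had a peak of 1503 bp at its TSS with the midpoint 256 bp inside. A second of 1301 bp lay over an exon 33.2 kb inside. Both ETS cores of the 100 bases before the MAML1 start were on the opposite strand. The other 6 MAML1 peaks each lay within 500 bp of a TSS of a neighbour. These neighbours were CANX (2 peaks), LTC4S, MGAT4B, SQSTM1 and MRNIP.

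RBPJ, intron peak 34.0 kb from the nearest RBPJ TSS, chr4:26199051-26199150: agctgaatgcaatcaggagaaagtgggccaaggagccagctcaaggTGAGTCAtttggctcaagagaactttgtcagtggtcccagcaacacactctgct
MAML1, 100 bases before the canonical TSS, chr5:179159723-179159822: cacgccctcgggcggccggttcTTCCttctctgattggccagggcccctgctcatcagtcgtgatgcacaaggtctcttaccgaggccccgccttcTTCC

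The target gene HES1 (ENSG00000114315, chromosome 3, 193853937 to 193856521, plus strand) is the shortest of the 10. Its peaks formed a group around it. Of 12 peaks, 5 had their midpoint within 5 kb of the canonical TSS, a count reached by 6 of 19881 genes (0.0302%), and 6 did within 10 kb, reached by 17 genes. From the upstream end of the first to the downstream end of the last, these 6 spanned 11.4 kb, of which 65.3% was covered by peaks. Going downstream, their midpoints lay 4.68, 1.54 and 0.105 kb before the TSS and 1.23, 3.44 and 5.49 kb after it. The peak at the TSS itself was narrow at 514 bp, and its larger neighbours measured 1781 and 1845 bp. Whether such a row is several peaks or 1 broad region depends on the peak caller. Joined across gaps under 1 kb, 5 of them became a single region of 8985 bp, and 15 of 24904 joined regions in the genome were as wide or wider. After joining, HES1 had 2 regions within 5 kb of its TSS and 6 in its window, in place of 5 and 12. The count within 2 kb was 3 peaks, reached by 20 genes. The remaining upstream peaks, 45.0 to 77.7 kb away, stood at or near the starts of the non-coding genes LINC02028 and ENSG00000229964.

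**Figure D4:**
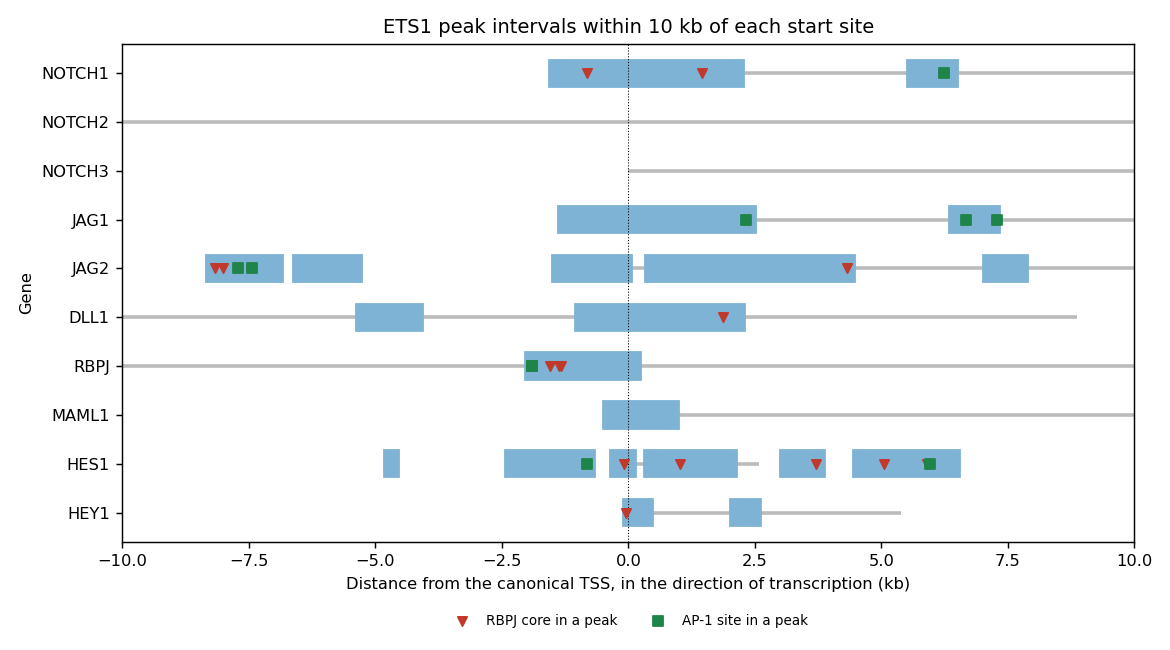
Blue boxes are ETS1 peak intervals within 10 kb of the canonical TSS of each gene, drawn to scale in kb along the direction of transcription, and grey lines are gene bodies. Red triangles mark RBPJ cores and green squares AP-1 sites inside these peaks. HES1 has 6 peaks in this range and JAG2 has 5, wide peaks sit over the starts of NOTCH1, JAG1 and DLL1, and NOTCH2 and NOTCH3 have none.

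The RBPJ core GTGGGAA contains GGAA, so each occurrence counts as an ETS core as well. Of all nuclear peaks, 13.9% held the RBPJ core in the 600 bp around the midpoint and 24.6% over the whole peak. At HES1 it occurred in the 600 bp around the midpoint in 6 of 12 peaks, and over the whole peaks in 7 of 12, with 9 occurrences. One stood 82 bp before the TSS, in the sole peak over the start, with a second GGAA beside it. The 100 bases before the TSS held this core in 1.72% of 19881 genes. Others stood 3706 and 5894 bp after the TSS. The one at 5894 bp lay 402 bp from the midpoint of its peak and so outside the 600 bp searched. These stretches are shown because the RBPJ core recurs across the HES1 peaks.

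HES1, 100 bases before the canonical TSS, chr3:193853837-193853936: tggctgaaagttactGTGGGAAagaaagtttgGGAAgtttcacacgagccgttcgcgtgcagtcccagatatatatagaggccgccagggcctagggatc
HES1, peak 3.44 kb downstream, chr3:193857594-193857693: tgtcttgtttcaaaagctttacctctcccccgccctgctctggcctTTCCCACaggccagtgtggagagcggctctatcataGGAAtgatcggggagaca
HES1, peak 5.49 kb downstream, chr3:193859782-193859881: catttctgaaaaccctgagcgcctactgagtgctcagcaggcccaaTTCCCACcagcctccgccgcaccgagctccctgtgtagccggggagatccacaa

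HEY1 (ENSG00000164683, chromosome 8, 80674606 to 80680092, minus strand) had 5 peaks, all nearest to HEY1 among coding genes. A peak of 612 bp lay 34 bp from an annotated TSS and covered the canonical one, and a second of 613 bp stood over an exon of the gene 1022 bp from the nearest TSS. The other 3 lay 16.2, 60.7 and 86.4 kb upstream, one of them at the start of LINC01607. An RBPJ core was present near the midpoint of 3 of the 5 peaks, and at the start it lay 47 bp before the canonical TSS. Taken as a pair, HES1 and HEY1 had the core in the 600 bp around the midpoint at 9 of 17 peaks (52.9%, interval 31.0 to 73.8%). At the other Notch genes it was present at 8 of 66 peaks (12.1%, interval 6.27 to 22.1%), and over all nuclear peaks at 13.9%. It was found at 7 of 38 peaks of the ligands, 1 of 18 of the receptors and 0 of 10 of the nuclear partners. Over whole peaks the contrast was smaller, with the core in 10 of 17 peaks at HES1 and HEY1 and in 25 of 66 at the others, namely 17 of 38, 5 of 18 and 3 of 10 in the same order. Of all nuclear peaks, 24.6% held the core over the whole peak. The peaks of a gene lie near each other and the split was looked at after the counts were known. These shares are therefore given without a test.

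Over all 83 peaks the RBPJ core was present in 17 windows of 600 bp (20.5%, interval 13.2 to 30.4%), against 13.9% of all nuclear peaks. In 200 bp the shares were 10.8 and 4.93%, and over whole peaks 42.2 and 24.6%, where the greater width of the Notch peaks also adds letters. GGAA was present in all 83 windows of 600 bp and in 99.7% of all nuclear peaks, and in 200 bp in 91.6 and 89.9%, so that this short core does not set the Notch peaks apart. The longer ETS site CCGGAAGT was in 0 of 83 windows, with an upper limit of 4.42%, and in 4.78% of all nuclear peaks. In the nuclear list this site lay mainly at TSS peaks, with 8.92% of them and at most 2.16% of any other position class. TSS peaks made up 34.9% of the Notch peaks against 43.3% of all. The comparison was not adjusted for position, and a depletion of the site was not tested. Over whole peaks the longer site was found in 4 (4.82%) against 6.58%. AP-1 sites were present in 15 windows (18.1%, interval 11.3 to 27.7%) against 25.2% of all nuclear peaks. Within 200 bp the AP-1 shares were 7.23 and 12.2%, and over whole peaks 30.1 and 33.0%. By position, the 600 bp windows held AP-1 sites in 7 of 21 intron peaks (33.3% against 39.6%) and 3 of 18 intergenic peaks (16.7% against 39.2%). They did in 1 of 12 proximal peaks (8.33% against 26.1%) and 3 of 29 TSS peaks (10.3% against 9.46%). The RUNX core TGTGGT was in 38.6% against 29.9% and the E-box CACGTG, which many helix-loop-helix proteins bind, in 10.8% against 12.5%. The order of these pairs turned with the window, with RUNX cores in 10.8% against 12.1% within 200 bp and E-boxes in 31 of 83 whole peaks (37.3%) against 5928 of 26961. Base composition differed between the sets, with a median GC content of 62.3% in the Notch windows and 57.8% in all, and its part in these shares was not tested. Letters that match a motif do not show that the factor was there.

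Peaks of the Notch windows were wide. Their median width was 1238 bp (quartiles 742 and 1865 bp), against 969 bp for all nuclear peaks, and 12 of 83 (14.5%) were over 3 kb wide against 2.65% of all nuclear peaks. Of these 12, 8 lay in windows of the ligands, 3 in that of NOTCH1 and 1 in that of MAML1. None of the 17 target gene peaks was over 3 kb, and their median width was 613 bp. Many of the 12 stood away from the gene of the window. The nearest coding gene was GPR132 for those of 3163, 3086 and 4788 bp at JAG2. It was SEC16A and EGFL7 for those of 3420 and 6203 bp at NOTCH1, and SQSTM1 for the one at MAML1. At DLL1, those of 3278 and 4412 bp lay 107 and 65.4 kb downstream. A peak over 3 kb came within 500 bp of the canonical TSS, or covered it, at NOTCH1, JAG1, JAG2 and DLL1, 4 of 10 genes against 2.72% of 19881 genes. With a limit of 2 kb these were 5 genes, RBPJ being added, against 11%, and with 4 kb JAG2 remained against 0.865%. The width limit was set after the widths had been seen. Width in a list of this kind depends on read depth and on how near summits are joined, which the intervals alone do not show.

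**Figure D5:**
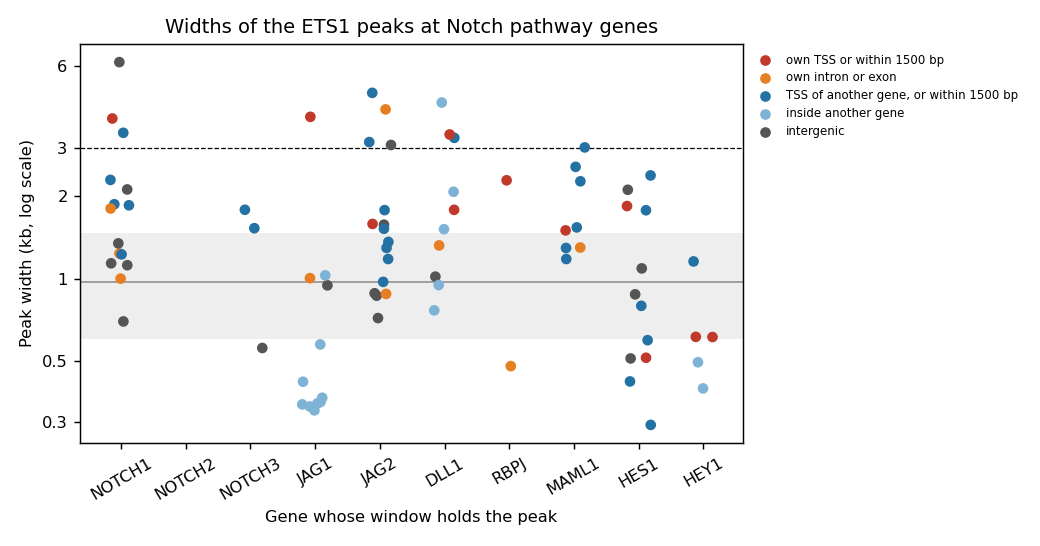
Each dot is 1 ETS1 peak in the window of the named gene, plotted by its width in kb on a log scale and coloured by position. The grey band and line give the quartiles and median of all nuclear peaks (609, 969 and 1462 bp), and the dashed line marks 3 kb. The widest peak, of 6203 bp, is at NOTCH1, 7 of 12 JAG1 peaks lie below 500 bp, and those of HES1 and HEY1 stay under the dashed line.

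By position, 29 of the 83 peaks were within 500 bp of a TSS of any gene (34.9%), compared with 43.3% of all nuclear peaks. A further 12 (14.5%) lay between 500 and 1500 bp from a TSS, against 8.51%. Exons held 3 (3.61% against 2.92%), introns 21 (25.3% against 26.1%) and intergenic sequence 18 (21.7% against 19.1%). Taking the Notch gene of the window first, 6 peaks were at its start, 5 proximal to it, 8 in its introns and 1 in an exon. At other genes, 21 were at a start, 8 proximal and 16 inside. With protein-coding genes alone, 49.4% of the peaks became intergenic, against 30.4% of all nuclear peaks, and intron peaks were 12.0% against 22.3%. Transcripts starting within 500 bp of a counted peak belonged to 24 neighbouring genes, 15 of them protein-coding. Beside those named above these were the coding genes BTBD6 and BRF1, which share a promoter region 79.4 kb upstream of JAG2, and NUDT14. The non-coding ones included LINC01451 and LINC02298, LINC02924 near HES1, ENSG00000257622 across JAG2 and NUDT14, MRNIP-DT and the pseudogene HMGB3P22.

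The wider pathway was read from a list of 68 genes sorted by role, the 10 genes included. A peak within 500 bp of a TSS was present at 46 of them (67.6%), and at 40 of the 58 others, beside the 53.1% of all genes. Only NOTCH2 lacked a peak in its window. Among 4 receptors only NOTCH1 had a TSS peak, and NOTCH4 had 1 peak in its body without one. Of 5 ligands, DLL1 and DLL4 had one and JAG1, JAG2 and DLL3 did not, although peaks covered the starts of JAG1 and JAG2. Of 9 target genes of the HES and HEY families 7 had one, HES7 and HEYL being without, and HES2 had the most body peaks with 4. The feedback inhibitor NRARP had no midpoint within 500 bp, but a peak covered its TSS. Of the noncanonical ligands DLK2 and DNER had one and DLK1 did not.

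In the nuclear complex 7 of 9 had a TSS peak, with MAML2 and KAT2B lacking one and MAML3 holding 5 body peaks. Of 11 corepressors 9 did, TLE2 was among those that did not, and CTBP2 held 9 body peaks. Of 9 proteases and gamma-secretase subunits, which serve to cut the receptor, 8 had a TSS peak and PSEN2 did not. Of 5 glycosylation enzymes 4 did and MFNG did not, and LFNG, a Fringe enzyme that tunes ligand choice, had 4 body peaks. In endocytosis and turnover 6 of 12 had one, and MIB1, NEURL1, DTX1, DTX2, DTX3 and DTX4 did not. A peak covered an annotated TSS at 2 of the 4 receptors and 4 of the 5 ligands. A covering peak without a midpoint within 500 bp was also found at NOTCH4, HES7, MIB1 and DTX4. The sets are small and no difference between roles was tested.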

How the data were processed

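ETS1 ChIP-seq of SCC25 cells was sequenced as single-end reads of 50 bases. Per the labels, the authors mapped reads to hg19 with Bowtie 1.1.1 and used SAMtools 1.3, keeping reads with 1 locus. Peaks were called with MACS2 against a merged input and passed through IDR over the 3 samples, and 1 consensus list of 26970 intervals was deposited. It holds positions and no score, so the unit is base pairs. All 26961 nuclear peaks were used, and the 9 mitochondrial ones were left out. A peak was placed by its midpoint. The 10 genes, the pathway list and the motifs were chosen with earlier results of these data known. The width limit, the HES1 group, joining under 1 kb, the motif split by role and the sequences shown were chosen after their values were seen. Pathway genes named are those without a TSS peak and up to 3 per role with most body peaks, except for a result that is not reported here. Classes followed the order TSS (500 bp), proximal (1500 bp), exon, intron, intergenic. Motifs were searched on both strands in 600 bp around the midpoint. Counting and uniqueness code was tested on simulated data. Python 3.11.15, numpy 2.4.6, pandas 2.3.3, pysam 0.24.0 and numba 0.67.0 were used, with GENCODE release 44 on GRCh37.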

Additional observations from a re-analysis of the deposited data

How the results depend on the processing

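No paired analysis was possible because the peaks form 1 list pooled over the samples, and for the same reason no replicate could be left out. The 83 window peaks became 17 in gene bodies alone, 28 within 10 kb, 49 within 50 kb and 147 within 250 kb, by construction of the window. The first 13485 lines of the list gave 43, peaks at least as wide as the median 54, and joining peaks under 1 kb apart 71. The count of genes with a TSS peak, 6 of 10 against 53.1% of all genes, was 3 against 34.8% with the first 13485 lines. It was 4 against 46.1% with canonical transcripts alone and 4 against 41.1% with peaks at least as wide as the median. Protein-coding transcripts alone gave 6 against 50.5%. It was 8 against 56.9% within 1000 bp, 58.1% within 1500 bp and 56% for peaks covering a TSS. With the gene body put before the TSS, TSS peaks were 4.82% against 5.63% of all nuclear peaks and proximal 3.61% against 1.53%. Exon peaks were then 24.1% against 29.4% and intron peaks 45.8% against 44.4%. With protein-coding genes alone, TSS peaks were 25.3% against 38.5%, intron 12.0% against 22.3% and intergenic 49.4% against 30.4%. Peaks nearest to a Notch gene fell from 42 to 17 with all annotated genes. GGAA was in 91.6% of peaks within 200 bp, and the RBPJ core in 10.8% within 200 bp and 42.2% of whole peaks. The share of all genes with a window peak was 87.5%, 73.0% over all annotated genes and 53.5% in gene bodies.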

Other observations

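Place in the list was not described in the sources used here, and the lines are not sorted by position. Of the 83 peaks, some at HES1 had the lowest line numbers, from which no strength can be read. They were the peak 5.49 kb after the TSS at line 184, the one 1.54 kb before it at line 195 and the one 46.6 kb before it at line 297, out of 26970 lines. The intron peak of RBPJ at line 548 came next, while another HES1 peak stood at line 25951. With the first 13485 lines, HES1 kept 9 of its 12 peaks and JAG1 kept 5 of 12.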
